A study of Gallus gallus with 26 samples.

Results

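Messenger RNA of 9 genes that mark germ cells, the piRNA pathway and meiosis was followed across normal and tumour-bearing ovary of the chicken (Gallus gallus). The genes are DDX4, DAZL, PIWIL1, TDRD1, TDRD9, MAEL, SYCP1, SYCP2 and SYCP3. They were taken as a fixed list of symbols, which was chosen with earlier results of these data known. All 9 were present among the 25079 genes of the deposited table. All 9 passed the filter on low counts that left 16130 genes for testing. The groups were normal ovary (n = 4), early-stage ovarian cancer (n = 4) and late-stage ovarian cancer (n = 5). The labels give no strain, age or treatment for any of these groups and name no batch. Nothing states that each sample is a different hen, and a p-value here reflects sample-to-sample spread, which may be technical. Samples are named below by their group and the number in their code.

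Germ cells of the adult hen ovary are oocytes enclosed in follicles, set in a cortex of stroma, blood vessels and smooth muscle. PIWI-interacting RNAs (piRNAs) are short RNAs that guide PIWI proteins to transposon transcripts in the germ line. Tudor-domain proteins and RNA helicases assemble these complexes in germ granules. The synaptonemal complex holds paired chromosomes together in meiotic prophase and is taken apart before the oocyte grows.

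Messenger RNA libraries held 16273731 to 20118629 estimated counts. Log2 CPM (CPM being the count scaled to the size of the library) correlated between libraries with r from 0.88 to 0.98, and no column repeated another. Late sample 3 lay farthest out on the first principal component, which took up 45.5% of the variance. Oocyte markers were read in every library: the 18 oocyte genes in the table summed to between 1468 and 2124 TPM (a count scaled for gene length and library size) in normal, 1234 and 3218 in early, and 1441 and 3769 in late samples. Germ-cell RNA was thus measured in all 3 groups. In bulk RNA, fewer cells of a type and less RNA per cell cannot be told apart.

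The 9 genes spanned more than 2 orders of magnitude in TPM. Over the 13 libraries DAZL averaged 168.4 ± 68.5 TPM (SD), MAEL 67.6 ± 24.98, PIWIL1 37.5 ± 13.3, TDRD1 21.6 ± 8.83 and TDRD9 6.47 ± 2.23. This order held in 13 of 13 libraries for each neighbouring pair. DDX4 (2.61 ± 0.95 TPM) and SYCP3 (2.53 ± 0.87 TPM) could not be ordered, since DDX4 was the higher in only 6 of 13 libraries. SYCP2 (0.877 ± 0.325 TPM) and SYCP1 (0.728 ± 0.335 TPM) came last, with SYCP2 the higher in 10 of 13 libraries. The 2 classical germ-cell RNA-binding proteins therefore lay far apart in level: DAZL was between 44.7 and 109.3 times DDX4 in TPM, with a median ratio of 60.7.

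**Figure D1:**
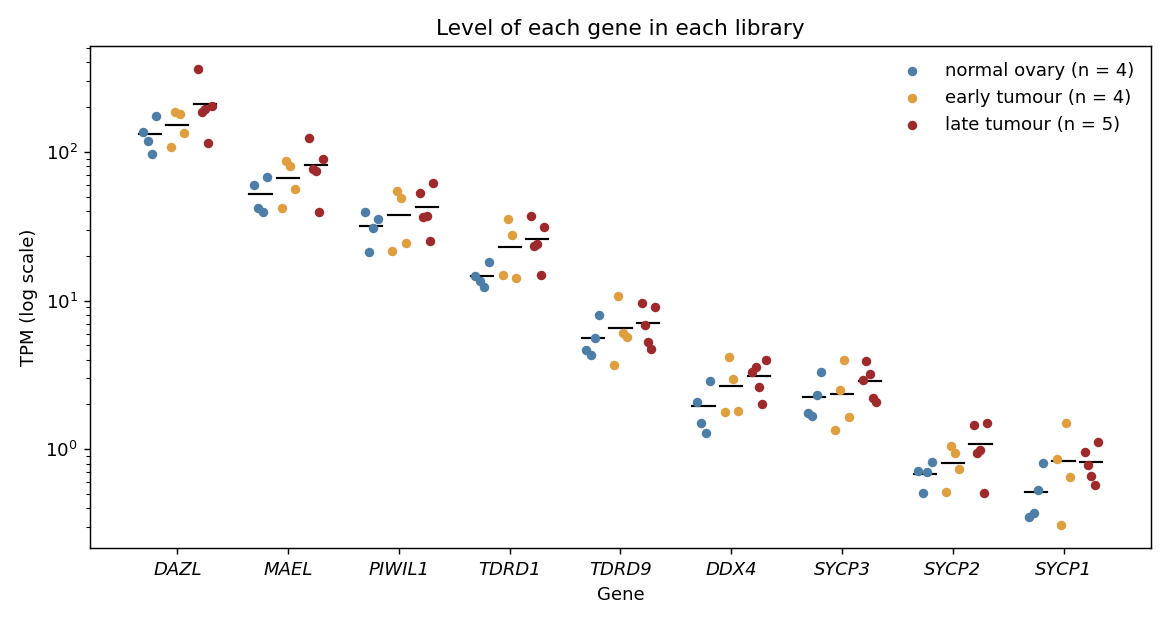
TPM of each gene (log scale) in each library, as points coloured by group, with a black line at the group mean; genes run from the highest mean over all libraries to the lowest. DAZL sits between 96.1 and 361.6 TPM and SYCP1 between 0.308 and 1.501 TPM, and the 3 groups overlap for every gene.

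The comparison of late-stage tumour with normal ovary asks which messenger RNAs differ once the tumour is advanced. All 9 genes had a higher fitted level in late samples, by 0.28 (TDRD9) to 0.76 (TDRD1) on the log2 scale, with a median of 0.60 where the median of all genes tested was 0.01. Of all genes tested, 50.9% had a log2 fold change above 0, and 6.404% lay above the median of the 9. None of the 9 passed edgeR's quasi-likelihood test after Benjamini-Hochberg adjustment, and neither did any other gene (0 of 16130, or 0%); 2893 genes had an unadjusted p under 0.05, 129 genes were called by DESeq2 and 895 by limma voom with quality weights. At an unadjusted p under 0.05, 5 of the 9 genes were higher (DDX4, DAZL, TDRD1, MAEL and SYCP2), against 7.51% of all genes tested. This count went from 1 to 6 when single samples were left out: it was 1 without normal sample 3, normal sample 6 or late sample 3, 2 without normal sample 4, and 3 without late sample 7 or 31. The groups separated, with every late sample above every normal sample, for 0 of the 9 genes and 1.24% of all genes. Limma voom with quality weights, which gives discordant libraries less weight, called DAZL (log2 fold change 0.64, adjusted p = 0.0490) and TDRD1 (0.75, adjusted p = 0.0449) as higher, where it called 2.2% of all genes as higher. Its weights were 1.10, 0.87, 1.91 and 0.60 for normal samples 3, 4, 6 and 7. For late samples 3, 7, 23, 25 and 31 they were 0.42, 2.58, 2.20, 0.73 and 1.02. The part of these weights in the 2 calls was not tested.

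**Figure D2:**
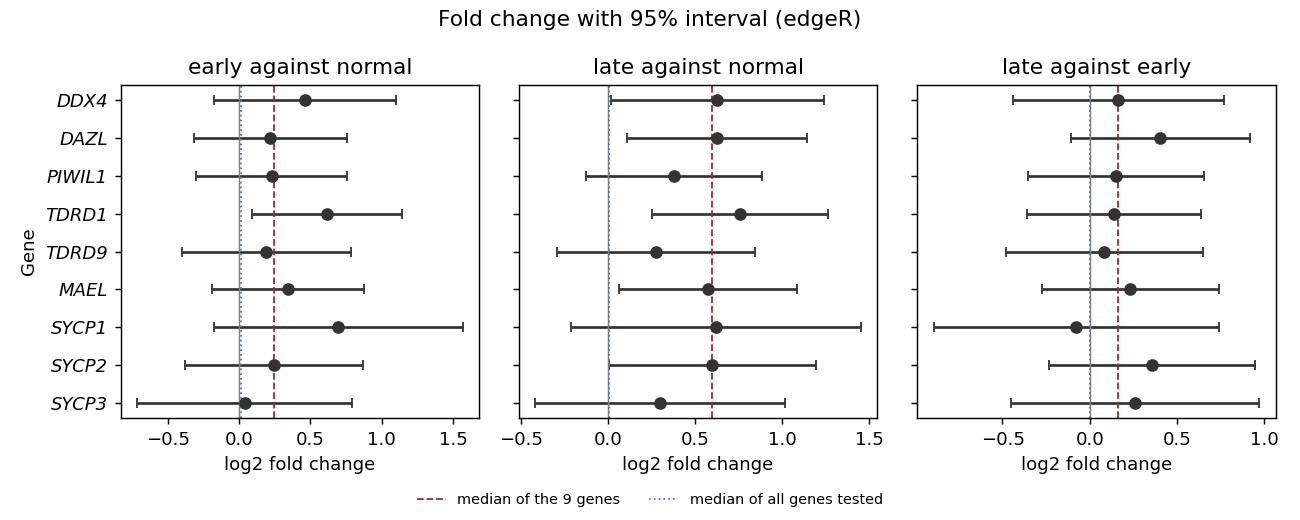
Log2 fold change of each gene in the 3 comparisons from the edgeR fit, with bars for the 95% interval, a dashed line at the median of the 9 genes and a dotted line at the median of all genes tested. Intervals for late against normal lie above 0 for DDX4, DAZL, TDRD1, MAEL and SYCP2 before adjustment, and no gene passed after it.

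DAZL, an RNA-binding protein that controls translation in germ cells, had the highest level. Its normalised CPM was 166.6, 171.3, 127.5 and 229.8 in normal samples 3, 4, 6 and 7, and 172.1, 223.4, 214.5 and 199.7 in early samples 9, 11, 12 and 21. It was 444.6, 241.9, 251.1, 172.8 and 228.9 in late samples 3, 7, 23, 25 and 31. Late sample 3 was far above all the others, and late samples 25 and 31 lay inside the normal range. Group means were 173.8 ± 42.2, 202.4 ± 22.5 and 267.9 ± 103.4 CPM (SD, n = 4, 4 and 5). The late against normal log2 fold change was 0.62 ± 0.24 SE (edgeR adjusted p = 0.249) and was 0.36 without late sample 3.

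DDX4, the chicken vasa homologue and an RNA helicase of germ granules, was read at 46 to 168 counts per library. It stood at 4.09, 3.58, 2.80 and 6.17 CPM in normal samples 3, 4, 6 and 7. Early samples 9, 11, 12 and 21 had 4.57, 8.25, 5.67 and 4.49 CPM, and late samples 3, 7, 23, 25 and 31 had 6.65, 7.54, 5.67, 4.91 and 7.46 CPM. Late samples exceeded 3 of the 4 normal samples in every case, while normal sample 7 lay among them, and early sample 11 was the highest of all. Means were 4.16 ± 1.44, 5.75 ± 1.75 and 6.44 ± 1.14 CPM, with a late against normal log2 fold change of 0.63 ± 0.29 SE (edgeR adjusted p = 0.272).

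Of the 9 genes, TDRD1 had the largest late against normal log2 fold change, which did not pass the test. It is a Tudor-domain scaffold that, in mouse, binds methylated PIWI proteins. Normal samples 3, 4, 6 and 7 had 46.6, 53.0, 43.3 and 61.8 CPM and early samples 9, 11, 12 and 21 had 61.1, 112.6, 85.0 and 55.4 CPM. Late samples 3, 7, 23, 25 and 31 had 119.6, 77.9, 81.6, 58.1 and 95.3 CPM. The normal values lay at the low end, and only late sample 25 came down into their range. The log2 fold change was 0.76 ± 0.23 SE for late against normal (95% interval 0.25 to 1.26, edgeR adjusted p = 0.244) and 0.62 ± 0.24 SE for early against normal (edgeR adjusted p = 0.916). Early samples 9 and 21 lay inside the normal range, and early samples 11 and 12 above it.

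MAEL, the homologue of maelstrom, which in mouse and fly takes part in transposon silencing, was the most abundant gene of the pathway list. It had 97.6, 83.5, 72.0 and 121.6 CPM in normal samples 3, 4, 6 and 7, and 90.2, 143.0, 128.3 and 113.8 CPM in early samples 9, 11, 12 and 21. Late samples 3, 7, 23, 25 and 31 had 210.3, 134.9, 131.7, 80.7 and 140.5 CPM. Late sample 3 was again the highest, late sample 25 fell inside the normal range, and the other late samples lay above it. The late against normal log2 fold change was 0.58 ± 0.24 SE (edgeR adjusted p = 0.257), and 0.38 without late sample 3.

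PIWIL1, a PIWI protein that carries piRNAs, averaged 79.9 ± 14.03 CPM over the normal samples (60.5 to 91.2), 93.7 ± 30.9 over the early ones (65.6 to 128.7) and 104.1 ± 26.8 over the late ones (73.0 to 137.0). Of the 4 normal samples, 3 lay inside the late range. Its late against normal log2 fold change was 0.38 ± 0.24 SE (edgeR adjusted p = 0.386). TDRD9, a Tudor-domain helicase needed for transposon silencing in the mouse germ line, gave 18.5 ± 5.49, 21.2 ± 7.48 and 22.4 ± 5.59 CPM. With a log2 fold change of 0.28 ± 0.26 SE (edgeR adjusted p = 0.573) it had the smallest late against normal value of the 9, which was 0.14 without late sample 3, 0.16 without normal sample 3 and 0.50 without normal sample 7.

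SYCP2 and SYCP1 were the least abundant of the 9 genes in TPM, and SYCP3 was level with DDX4. The order differed in CPM, which is not scaled for gene length. Mean CPM over all libraries was 6.67 for SYCP1, 5.53 for DDX4, 4.21 for SYCP2 and 1.55 for SYCP3. SYCP2, a protein of the lateral elements, had 3.13, 2.76, 3.47 and 4.05 CPM in normal samples 3, 4, 6 and 7 and 3.03, 4.76, 4.07 and 4.02 CPM in early samples 9, 11, 12 and 21. Late samples 3, 7, 23, 25 and 31 had 6.70, 4.59, 4.88, 2.90 and 6.35 CPM. All late samples but sample 25 exceeded every normal sample. The late against normal log2 fold change was 0.60 ± 0.28 SE (edgeR adjusted p = 0.278).

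SYCP1, which forms the transverse filaments between the paired axes, varied most between samples of a group. Its coefficient of variation after counting error was 40.8%, where TDRD1 had 25.4% and the median gene 27.8%. Early sample 11 had 2.60 CPM, the lowest of all 13 libraries, and early sample 12 had 12.2 CPM, the highest. The same early sample 11 held the highest DDX4 and TDRD9 of all libraries, so SYCP1 did not follow the other genes there. The normal range was 2.88 to 7.51 CPM and the late range 6.07 to 8.95 CPM, with a log2 fold change of 0.62 ± 0.39 SE (edgeR adjusted p = 0.390). Estimated counts of SYCP1 were not whole numbers, to within 0.01, in 13 of 13 libraries. Those of PIWIL1 were not whole in 9 libraries, SYCP3 in 8, DAZL in 7, MAEL and TDRD1 in 6 each and TDRD9 in 1, while those of DDX4 and SYCP2 were whole in all. How reads matching several features were divided is not given in the sources used here, so the 7 genes with such values carry that uncertainty.

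SYCP3, the other lateral element protein, had only 18 to 46 counts per library. The lowest count has an exact 95% Poisson interval of 10.7 to 28.4, which covers counting error only. Normal, early and late means were 1.41 ± 0.42, 1.45 ± 0.55 and 1.74 ± 0.44 CPM. SYCP3 did not pass the test in late against normal (log2 fold change 0.30 ± 0.33 SE, 95% interval -0.42 to 1.02, edgeR adjusted p = 0.633).

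Early-stage tumour was compared with normal ovary to show what differs between these groups. The labels give no time course, so an order in time cannot be read from it. All 9 genes had fitted levels above normal, by 0.04 (SYCP3) to 0.70 (SYCP1) on the log2 scale with a median of 0.24, where 52% of all genes had a log2 fold change above 0. EdgeR called 0 of the 9 and 0% of all genes (813 of 16130 had an unadjusted p under 0.05, DESeq2 called 8 and limma voom 0). Where nothing differs, a share of 0.05 of the genes is under that threshold on average. TDRD1 alone of the 9 was higher at an unadjusted p under 0.05, against 2.15% of all genes, and the groups separated for none of the 9 and 1.17% of all genes. SYCP1, whose normal and early means were 4.77 ± 2.01 and 7.74 ± 4.08 CPM, had the widest interval (log2 fold change 0.70, 95% interval -0.18 to 1.57, edgeR adjusted p = 0.916).

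Late-stage was compared with early-stage tumour to show what differs between stages. The log2 fold change was above 0 for 8 of the 9 genes and for 50.5% of all genes, with a median of 0.16 over the 9; SYCP1 was at -0.08. DAZL had the largest value, 0.40 ± 0.24 SE (95% interval -0.11 to 0.92, edgeR adjusted p = 0.736). EdgeR called 0 of the 9 and 0% of all genes (1023 of 16130 had an unadjusted p under 0.05, DESeq2 called 9 and limma voom 0). None of the 9 had an unadjusted p under 0.05, against 2.39% of all genes on the higher side, and none had separate groups, against 1.08%. The 3 comparisons share samples, so these values are not independent of each other.

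Samples of one group also differed widely from each other. The summed CPM of the 9 genes was 352.6 to 548.3 over the normal, 421.4 to 656.4 over the early and 417.7 to 955.1 over the late samples. When the 13 libraries were ranked for each gene, with 1 the highest, late sample 3 had the highest place on average (mean rank 2.44) and was first for 4 genes: DAZL, TDRD1, MAEL and SYCP2. Normal samples 4, 3 and 6 came last (mean ranks 11.3, 10.8 and 10.4). Normal sample 7 (5.44) ranked with most of the tumour samples. Early samples 9 (9.67) and 21 (8.78) and late sample 25 (9.22) ranked nearer normal samples 4, 3 and 6.

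**Figure D3:**
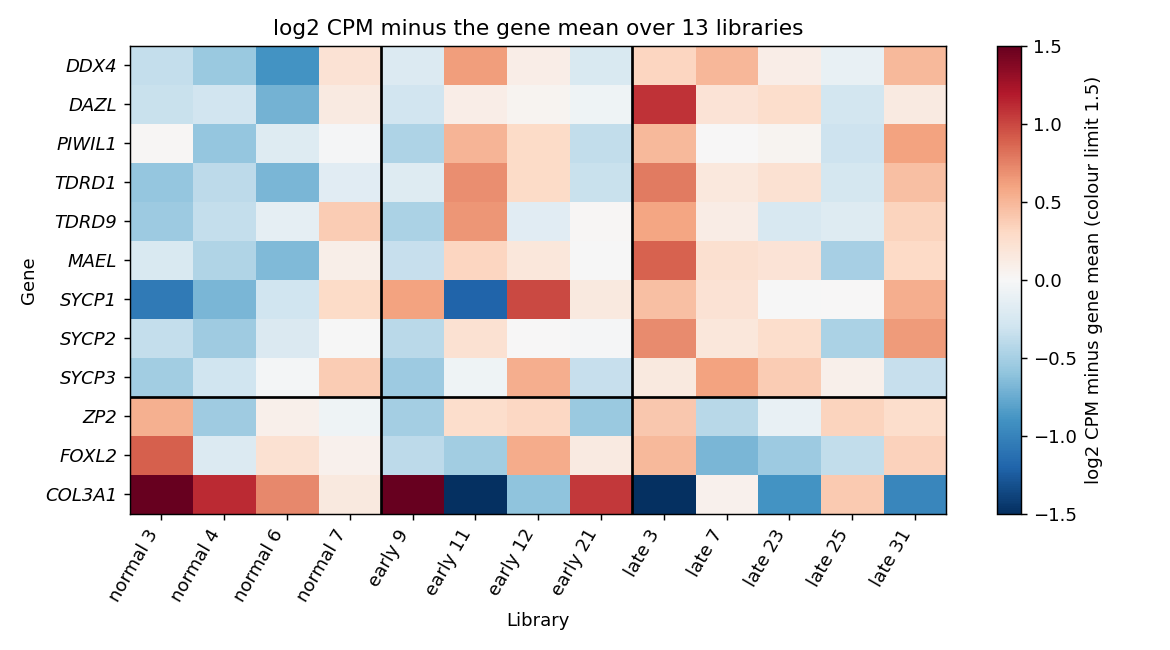
Log2 CPM of each gene minus its mean over the 13 libraries, in colour from -1.5 to 1.5, with libraries in columns (vertical lines part normal, early and late samples) and ZP2, FOXL2 and COL3A1 under the horizontal line for comparison. Late sample 3 is high for DAZL and MAEL, SYCP1 departs from the other genes in early sample 11, and COL3A1 is low where most of the 9 genes are high.

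Whether the genes vary together was asked over the 13 libraries, in 63 correlations of log2 CPM (36 pairs of the 9 genes, and each gene against ZP2, FOXL2 and COL3A1). All 36 pairs had a positive Pearson r, from 0.07 (TDRD9 with SYCP1) to 0.94 (DAZL with MAEL), with a median of 0.71. The 21 pairs among the 7 genes other than SYCP1 and SYCP3 all passed Benjamini-Hochberg adjustment of the permutation p for Pearson's r (r from 0.62 to 0.94). For Spearman's rho 17 of them passed. The share of passing pairs among all genes tested was not computed, so these counts do not show a trait particular to the 9 genes. No pair with SYCP1 or SYCP3 passed by either measure, and whether those correlations differ from the others was not tested.

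DAZL and MAEL gave r = 0.94 (permutation p = 1e-05, the smallest that 100000 permutations can give; adjusted p = 0.00063) and rho = 0.84 (permutation p = 0.00056, adjusted p = 0.00441). Without the 2 libraries farthest from the DAZL median, r was 0.91, and with values centred on group means it was 0.93. MAEL and SYCP2 gave r = 0.90 (permutation p = 4e-05, adjusted p = 0.00063) and rho = 0.91 (permutation p = 0.0001, adjusted p = 0.00205), with r = 0.93 without the 2 farthest libraries and 0.86 centred on group means. TDRD1 and TDRD9, with r = 0.73 and rho = 0.64 (permutation p = 0.00562 and 0.0199, adjusted p = 0.0154 and 0.0502), gave r = 0.46 without the 2 farthest libraries and 0.75 centred on group means, so the relation over all libraries rests in part on those samples.

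**Figure D4:**
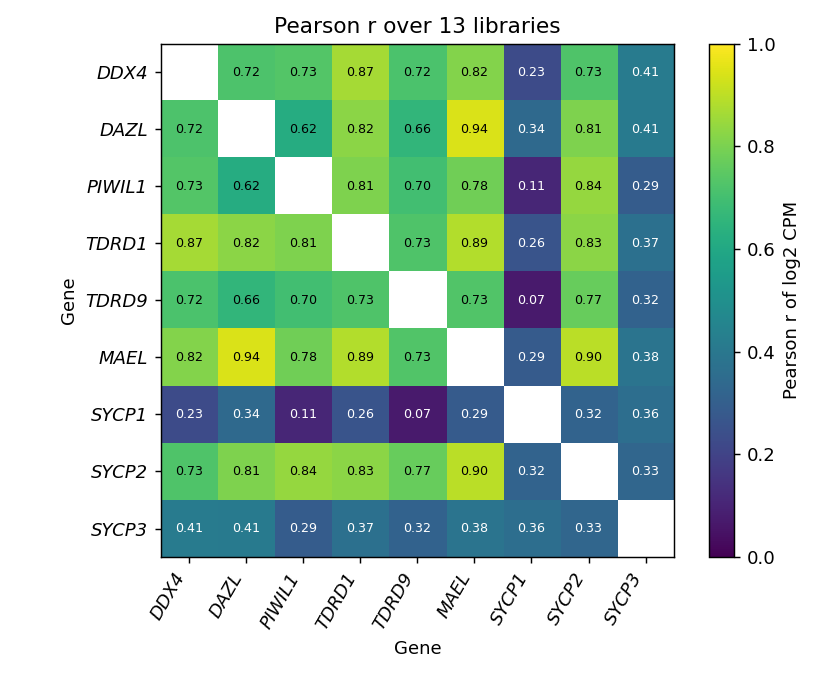
Pearson r of log2 CPM over the 13 libraries for each pair of the 9 genes, in colour and printed in each cell. Pairs with SYCP1 or SYCP3 run from 0.07 to 0.41, and all other pairs from 0.62 to 0.94.

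Many other genes followed the same course. The comparison was with the mean centred profile of the 9 genes. Of the other named genes with an average log2 CPM of at least 1, 15.5% had r above 0.7 with it. The 5 most alike of the named genes with an average log2 CPM of at least 1 were CKAP5 (r = 0.98), a microtubule-binding protein of the spindle, KBTBD8 (0.97), a substrate adaptor of a ubiquitin ligase, ASNSD1 (0.97), SMARCA5 (0.97), a chromatin-remodelling ATPase, and TMEM181 (0.97), each over 13 libraries. This is a description of the libraries, with no test.

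COL3A1, the collagen III chain of stroma, ran opposite to the 9 genes. Its Pearson r was negative with all 9, from -0.91 (TDRD1) to -0.22 (SYCP1), and 7 relations passed adjustment by both measures, those with SYCP1 and SYCP3 being the exceptions. For TDRD1, r was -0.91 (permutation p = 2e-05, adjusted p = 0.00063) and rho -0.90 (permutation p = 6e-05, adjusted p = 0.00189). It was -0.84 without the 2 libraries farthest from the TDRD1 median and -0.90 with values centred on group means. Over all other genes tested, 12.9% had r below -0.7 with COL3A1, and 18.1% had r above 0.7. That cut is not the same as passing adjustment: DDX4 passed with r = -0.696, which did not reach it. The share of all genes that would pass adjustment was not computed. Of the relations with ZP2, an egg-coat protein, the one with PIWIL1 passed for Pearson's r (r = 0.67, permutation p = 0.0133, adjusted p = 0.03) but not for Spearman's rho (rho = 0.61, permutation p = 0.0297, adjusted p = 0.0693), and no other passed by either measure. The r of ZP2 with PIWIL1 was 0.60 without the 2 farthest libraries and 0.71 centred on group means. FOXL2, a granulosa cell transcription factor, gave no relation that passed (r from -0.25 to 0.28). Over all other genes tested, 6.02% had r above 0.7 with ZP2 and 1.63% with FOXL2. The r of PIWIL1 with ZP2 over all libraries did not reach that cut. Differences between these correlations were not tested.

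**Figure D5:**
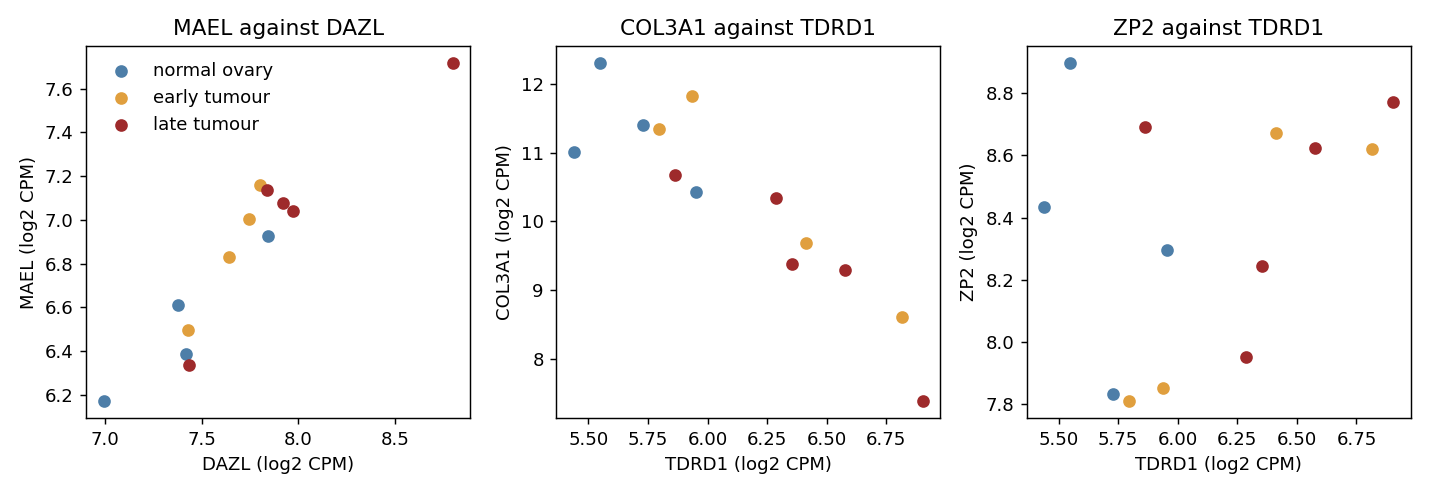
Log2 CPM of MAEL against DAZL, COL3A1 against TDRD1 and ZP2 against TDRD1, with each point a library coloured by group. MAEL follows DAZL (r = 0.94), COL3A1 declines as TDRD1 increases (r = -0.91) in all 3 groups together, and ZP2 has no clear relation with TDRD1 (r = 0.30, permutation p = 0.311, adjusted p = 0.489; rho = 0.27, permutation p = 0.375, adjusted p = 0.549; r = 0.05 without the 2 farthest libraries).

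Marker genes of other ovarian cell types were read beside the 9 genes. The 8 fibroblast markers summed to between 1323 and 4516 TPM in normal, 587 and 2891 in early, and 416 and 1634 in late samples, and 8 of 8 had a lower fitted level in late than in normal samples (median log2 fold change -1.10). COL3A1 itself averaged 2798 ± 1603 CPM (normal) and 878.8 ± 582.6 CPM (late; edgeR adjusted p = 0.252). The 7 smooth muscle markers summed to 435 to 7666, 279 to 2506 and 81.4 to 1132 TPM, and 7 of 7 had a lower fitted level in late samples (median -2.53). Leukocyte markers (7 of 8 lower, median -0.42; sums of 2116 to 9286 in normal and 359 to 4338 TPM in late samples) and endothelial markers (7 of 8 lower, median -0.79; 152.3 to 204.3 and 151.0 to 222.7 TPM) also had mostly lower fitted levels. In early samples the leukocyte sums were 1812 to 6496 TPM and the endothelial sums 208.8 to 235.9 TPM. Of the 8 endothelial markers, 7 had a higher fitted level in early than in normal samples (median log2 fold change 0.37). Of the 8 leukocyte markers, 2 did (median -0.14). The ranges of the sums overlapped between normal and late samples for all 4 lists. No marker of these lists was at 0 in all libraries. None was called by edgeR, which called 0 of 16130 genes in late against normal. Counts at an unadjusted p under 0.05 and a lower level in late samples were 7 of 7 smooth muscle and 4 of 8 fibroblast markers. They were 4 of 8 for endothelial and 0 of 8 for leukocyte markers, and 1 endothelial marker was higher at that threshold. Of all 16130 genes tested, 1682 were lower at it. The part of these markers in the values of the 9 genes was not tested.

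Mitotic genes (7 of 8 higher in late than in normal samples, median 0.43) were led by CCNB1, which starts mitosis and is also stored by oocytes, at 1653 ± 464.7 CPM (normal) and 2101 ± 451.4 CPM (late; log2 fold change 0.35, edgeR adjusted p = 0.418). Granulosa markers split evenly (4 of 7 tested higher, median 0.05). Of the other marker lists, 3 of 6 epithelial, 0 of 4 red blood cell and 1 of 4 testis somatic genes tested were higher. At an unadjusted p under 0.05, 1 epithelial gene was higher and 1 testis somatic gene lower. The 8 epithelial markers, 2 of them not tested, summed to 767 to 1276 TPM in normal samples. Their sums were 912 to 1365 TPM in early and 1105 to 1665 TPM in late samples. Testis somatic markers summed to at most 35.3 TPM in any library, with DMRT1 at 4.57 ± 1.203 CPM in the normal group and 3.22 ± 1.18 CPM in the late one.

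Most genes of the wider piRNA pathway list also had positive fold changes. Of 26 listed genes 22 were in the table, all 22 were tested, and 19 had a higher fitted level in late than in normal samples (median 0.46), with none called. Without the 5 genes already described, 14 of 17 were higher, with a median of 0.45, and 4 of these 17 were higher at an unadjusted p under 0.05. Over all genes tested in this comparison, 50.9% had a log2 fold change above 0 and 7.51% were higher at an unadjusted p under 0.05, and the counts of each list below stand beside these shares. GTSF1, a zinc-finger partner of PIWI proteins, was at 42.3 ± 9.42, 39.7 ± 10.2 and 50.9 ± 6.59 CPM in normal, early and late samples (late against normal 0.26, edgeR adjusted p = 0.454). EXD1, in mouse a partner of TDRD12, was at 76.3 ± 15.5, 95.9 ± 17.3 and 118.7 ± 33.2 CPM (0.64 ± 0.22 SE, edgeR adjusted p = 0.244), and FKBP6, a co-chaperone, at 27.5 ± 4.32, 33.3 ± 9.56 and 37.7 ± 9.76 CPM (0.45, edgeR adjusted p = 0.294).

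The other 3 of those 4 genes, named after their values were seen, were HENMT1 (0.74), the methyltransferase of piRNA 3′ ends, TDRD12 (0.80) and TDRD7 (0.46), both Tudor-domain proteins of the pathway. HENMT1 stood at 31.02 ± 4.66 CPM (normal), 49.3 ± 7.92 CPM (early) and 51.7 ± 18.9 CPM (late). Genes of the list with a fitted level below normal in late samples, also named after their values were seen, were PLD6 (-0.56), TDRKH (-0.30) and MOV10L1 (-0.28). PLD6, a mitochondrial nuclease, and TDRKH, a Tudor-domain protein of mitochondria, serve piRNA maturation, and MOV10L1 is a helicase of piRNA precursors. In early against normal, 13 of the 17 were higher (median 0.27), and in late against early 12 of 17 (median 0.18).

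Of 45 listed meiosis genes 38 were in the table and tested, 32 had a higher fitted level in late than in normal samples, and the median was 0.22, with none called. Its most abundant members per length were MND1 (141.0 TPM) and PSMC3IP (45.2 TPM), partners in strand exchange, REC114 (61.6 TPM), which acts in double-strand break formation, and MLH3 (60.8 TPM), of crossover resolution. MND1 had normal and late means of 65.5 ± 21.5 and 79.4 ± 8.30 CPM (0.28, edgeR adjusted p = 0.421), REC114 at 64.6 ± 15.6 and 78.5 ± 16.1 (0.28, adjusted p = 0.425), MLH3 at 44.4 ± 7.98 and 60.8 ± 6.35 (0.45, adjusted p = 0.274), and PSMC3IP at 30.5 ± 4.44 and 32.3 ± 7.57 (0.08, adjusted p = 0.847). These 4 genes were chosen as the highest of the list in mean TPM, so they lay above its 3 synaptonemal complex genes by choice. Without the 3 synaptonemal complex genes, 29 of 35 meiosis genes were higher in late than in normal samples, with a median of 0.21. The 4 genes named here are among these 35.

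Among 21 germ cell identity genes 19 were in the table and 17 were tested (NANOS3 and LIN28A were below the filter, with 0 counts in at least one library each). In late against normal 15 of 17 were higher, with a median of 0.43, and none was called. Without those that belong to the 9 genes, 13 of 15 were higher, with a median of 0.33. Beside DAZL, the most abundant per length were NANOS1 (151.9 TPM), a translational repressor, NANOG (88.7 TPM), a pluripotency transcription factor that chicken germ cells express, and TFAP2C (47.9 TPM), a transcription factor of early germ cells. NANOG averaged 126.2 ± 28.0, 150.8 ± 34.3 and 190.8 ± 59.2 CPM over normal, early and late samples (0.60 ± 0.25 SE, edgeR adjusted p = 0.259). NANOS1 was at 100.9 ± 18.2, 116.7 ± 17.4 and 119.1 ± 17.7 CPM (0.24, adjusted p = 0.412) and TFAP2C at 79.2 ± 22.3, 83.2 ± 40.8 and 110.2 ± 35.6 CPM (0.48, adjusted p = 0.393).

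Oocyte genes lay on the same side, with 17 of 18 higher in late than in normal samples and a median of 0.36, none called. BTG4, which drives decay of maternal messenger RNA, was at 223.6 ± 61.2, 304.1 ± 116.6 and 368.8 ± 129.1 CPM (0.72 ± 0.29 SE, edgeR adjusted p = 0.252). ZAR1L, GDF9 and KPNA7, of maternal RNA storage, follicle signalling and nuclear import, had log2 fold changes of 0.44, 0.49 and 0.22. The exception was ZP1, an egg-coat protein named after its values were seen, at 67.6 ± 34.9 (normal), 54.7 ± 42.8 (early) and 15.5 ± 13.8 CPM (late; log2 fold change -2.12 ± 0.70 SE, edgeR adjusted p = 0.244).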

How the data were processed

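Estimated counts and TPM values per gene were deposited by the authors for 13 messenger RNA samples; the estimated counts are not normalised, and TPM values are scaled for length and library total. The tools listed, per the submitters' processing notes, are BWA, FastQC and GATK 3.3.0, without saying what each did. Counting program: not given in the sources used here, and likewise the strand setting and genome build. Each sample code carries a pair of records, and which of them is the messenger RNA library is not given, so columns were matched to groups by code. The miRNA table was not used here. All 13 columns entered 1 edgeR 4.0.16 quasi-likelihood fit (R 4.3.3; robust, TMM scaling, default filter with a minimum count of 10) on counts rounded to whole numbers, with a mean per group and 3 contrasts. P-values were adjusted by Benjamini-Hochberg over 16130 genes, with a threshold of 0.05. SE is that implied by the F statistic, and intervals are 95%. Normalised CPM is the rounded count over the scaled library size; log2 CPM used a prior count of 2. Levels of different genes were compared in TPM. Correlations used 100000 permutations (two-sided), adjusted over 63 relations. Alternatives were DESeq2 1.42.0, limma 3.58.1 (voom with quality weights, and log2 TPM), other scalings and filters, leaving out each sample, and the code number as a block. The fit was tested on simulated counts. In late against normal it recovered 87.5% of genes given a log2 change of 2 and 39.4% of those given 1. For a log2 change of 1 it recovered 28.4% in early against normal and 43.9% in late against early. Smaller changes were not simulated. The changed genes were drawn from those with a mean above 2 CPM, and SYCP3, with a mean of 1.55 CPM, lies below that. Counts were drawn independently for each gene, so variation shared between genes was not simulated.

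The 9 genes and all gene lists were chosen with earlier results of these data known. All 9 genes are named, with the 4 members of highest mean TPM of the piRNA, meiosis, germ cell and oocyte lists, and the 5 genes most alike; for the somatic and mitosis lists, counts and sums are given and few members are named. Symbols are those of the deposited table.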

Additional observations from a re-analysis of the deposited data

Results flagged for a closer look

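DAZL in late sample 3 stood at 444.6 CPM, and the next highest late sample at 251.1 CPM. The gap took up 0.712 of the range of the 5 late samples, just above Dixon's 95% critical value for 5 values. Chance flags about 1 in 20 groups, and 27 groups (9 genes in 3 groups) were examined. The same sample was the highest of all libraries for TDRD1, MAEL and SYCP2, and held the lowest COL3A1, at 166.8 CPM, where the other 12 libraries ran from 390.3 to 5061 CPM.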

How the results depend on the processing

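The number of the 9 genes called stayed at 0 in every comparison and alternative but one: limma voom with quality weights called 2 in late against normal. Late against normal kept a log2 fold change above 0 for 9 of 9 genes in all 20 alternatives, with medians from 0.38 (without late sample 3, or on log2(TPM + 1)) to 0.73 (without normal sample 7). Of the 9 genes, 5 had an unadjusted p under 0.05 and a higher level in late than in normal samples. This count was 3 with library-size scaling or with the 2 groups alone, 1 or 2 on log2 TPM and 6 with voom. It was 0 with the replicate block, where only the code numbers 3 and 7 inform the contrast. Over all genes, DESeq2 called 8 in early against normal, 129 in late against normal and 9 in late against early, and limma voom 895 in late against normal. Limma on log2(TPM + 0.1) called 3 in early against normal and 1 in late against early, and on log2(TPM + 1) without a filter 1 in each comparison with normal. Leaving out single samples gave 0 to 113 genes in late against normal (113 without normal sample 7) and 0 in the other comparisons. The cause was not tested.

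Small values changed sign. SYCP3 in early against normal was -0.069 with voom, -0.0036 on log2(TPM + 0.1) and from -0.25 to 0.25 with single samples left out. SYCP1 in late against early was 0.12 on log2(TPM + 0.1), 0.0223 on log2(TPM + 1) with or without a filter, and from -0.37 to 0.23 with single samples left out. With single samples left out, TDRD9 ran from -0.0724 to 0.41 in early against normal and from -0.0569 to 0.35 in late against early, and TDRD1 from -0.0055 to 0.37 in late against early.

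Normal and late samples share the code numbers 3 and 7. Deviations from the group mean correlated at 0.0021 for number 3 and -0.136 for number 7. With so few shared numbers, these values cannot show whether a number marks the same hen. The numbers were not taken as pairs in the main fit. With the replicate block 0 genes and 0 of the 9 were called in late against normal. Only the numbers 3 and 7 inform that contrast, so the fit had little power and nothing is concluded from its 0 calls. SYCP3 had the lowest counts of the 9 genes, at 18 to 46 per library, and the part of depth in its interval was not tested.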
